A study of Mus musculus with 3 samples.

Results

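Migratory Ccr7 dendritic cells were 794 of 31681 lung cells kept from 3 single-cell RNA libraries. Of these, 141 came from mice given LPS with Reg3g, 546 from mice given LPS and 107 from mice given PBS. A cell was counted as a member when it held a UMI, a single tagged RNA molecule, for at least 3 of 6 genes (Ccr7, Fscn1, Cacnb3, Il4i1, Apol7c and Nudt17). It also had to hold at most 2 summed UMIs of the alveolar macrophage genes Krt79, Plet1 and Slc39a2. The cells were thus selected on the RNA levels of these 6 genes, which are given as a description.

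Migratory dendritic cells are the mature form that dendritic cells of tissues such as the lung take after they have picked up antigen or sensed an inflammatory signal. Ccr7 on their surface follows the chemokines Ccl19 and Ccl21 through lymphatic vessels into the draining lymph node, where the cells present peptides to naive T cells. On maturation they stop taking up antigen, hold peptide-loaded MHC class II at the surface, raise co-stimulatory ligands and chemokines that draw T cells, and also carry restraining molecules such as the ligands of PD-1.

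All mice were wild-type C57BL/6, and every instillation was made into the trachea under anesthesia in 50 µL. The first group received LPS, the bacterial endotoxin sensed by Tlr4, at 4 mg/kg together with 6 µg of Reg3g, which is a lectin that cells secrete; the second received the same dose of LPS alone; the third received PBS, the vehicle. Lungs were taken after 24 h, and live CD45+, Ly6G-, F4/80+ cells that also carried CD11b or CD11c were sorted, a gate set for macrophages. Cells of 3 mice were pooled into 1 library per group, which leaves the mice without labels. No difference between groups therefore has a replicate check, no test was made, and "at least 2-fold" is a rule of size and not of significance. The 95% intervals given after values cover counting error alone, and leave out the spread among mice, cell preparations and libraries. Those of RNA ratios treat each UMI as a separate draw, so they also leave out the spread among cells and can be too narrow.

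The LPS with Reg3g, LPS and PBS libraries held between 8475 and 15015 barcodes and between 52354207 and 70474636 UMIs. The members' summed UMIs were 689499 in the LPS with Reg3g library, 2337089 in the LPS library and 713416 in the PBS library, and levels below are counts per 1e6 of these sums (CPM). A member held a median of 4647 UMIs with LPS and Reg3g, 3822.5 with LPS and 5836 with PBS, so the LPS members were the shallowest. Between 28 and 37 barcodes were shared by each pair of libraries, and no member shared one with a member of another library. A doublet score marked 6.38% of the members with LPS and Reg3g, 10.6% with LPS and 1.87% with PBS, against 4.31% of all kept cells with LPS and Reg3g, 6.50% with LPS and 3.53% with PBS; the part of doublets in the results was not tested beyond leaving the marked cells out.

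The members carried the markers of the label in all 3 libraries. Ccr7 stood at 2059 CPM with LPS and Reg3g, 1794 CPM with LPS and 1884 CPM with PBS. Fscn1, which bundles actin in the long processes of mature dendritic cells, stood at 3936 CPM with LPS and Reg3g, 3921 CPM with LPS and 3161 CPM with PBS. Cacnb3, a calcium channel subunit, ranged from 426 to 497 CPM. Il4i1, a secreted amino acid oxidase that restrains T cells, stood at 921 CPM with LPS and Reg3g, 738 CPM with LPS and 931 CPM with PBS. Nudt17, of the Nudix hydrolase family, stood at 146 CPM with LPS and Reg3g, 115 CPM with LPS and 199 CPM with PBS. For LPS against PBS the log2 ratio was -0.33 (-0.46 to -0.20) for Il4i1 and -0.80 (-1.09 to -0.49) for Nudt17, both under 2-fold. Ccl22 and Aldh1a2 were not used to choose the cells. Ccl22, a chemokine for Ccr4-bearing T cells, stood at 1648 CPM with LPS and Reg3g, 1459 CPM with LPS and 2953 CPM with PBS. In conventional dendritic cells of the same libraries it stood at 77.9 CPM with LPS and Reg3g, 186 CPM with LPS and 204 CPM with PBS, and in lymphoid cells at most at 6.82 CPM. Aldh1a2, which makes retinoic acid, stood at 273 CPM with LPS and Reg3g, 386 CPM with LPS and 192 CPM with PBS in the members, at 10.5 to 14.4 CPM in conventional dendritic cells and at 0 in lymphoid cells.

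Apol7c, a member of the apolipoprotein L family found in dendritic cells, was the single rule gene of the 6 that differed by 2-fold or more between LPS and PBS. It stood at 241 CPM with LPS and Reg3g, 190 CPM with LPS and 992 CPM with PBS. It was 5.22-fold lower with LPS than with PBS (log2 ratio -2.39, 95% interval -2.56 to -2.21). After every cell was thinned to 2000 UMIs, 27.3% of members with LPS and Reg3g, 16.2% with LPS and 56.7% with PBS held an Apol7c UMI, and unthinned the shares were 32.6% with LPS and Reg3g, 21.2% with LPS and 66.4% with PBS. No lymphoid cell held one, which at a limit of 3 cells allows up to 6.00% of the thinned lymphoid cells with LPS and Reg3g, 5.77% with LPS and 4.11% with PBS. Because Apol7c was used to choose the cells, its level among them is a description. The 250 bases before its start are shown because they hold the interferon motif named below, on the opposite strand. They are chromosome 15, chr15:77533316-77533565 on the minus strand of GRCm38.p6 (RefSeq), and the capitals mark 2 overlapping matches between 39 and 55 bases before the start.
Apol7c: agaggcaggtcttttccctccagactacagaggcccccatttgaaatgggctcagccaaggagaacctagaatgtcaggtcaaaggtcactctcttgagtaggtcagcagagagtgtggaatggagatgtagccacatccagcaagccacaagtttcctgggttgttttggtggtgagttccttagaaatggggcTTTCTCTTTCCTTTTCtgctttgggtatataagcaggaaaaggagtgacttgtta

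How far a cell passed the rule differed between libraries. With LPS and Reg3g, 20 members held exactly 3 rule genes and 21 held all 6. With LPS, 142 members held exactly 3 and 35 held all 6. With PBS, 13 members held exactly 3 and 44 held all 6. The LPS members thus lay nearer the threshold, and the PBS members farther above it. Just outside it, 17 cells with LPS and Reg3g, 91 with LPS and 32 with PBS held 2 rule genes within the macrophage gene limit. Ccl22 in the members just inside stood at 1863 CPM with LPS and Reg3g, 1144 CPM with LPS and 2104 CPM with PBS, and in the cells just outside at 173 CPM with LPS and Reg3g, 645 CPM with LPS and 725 CPM with PBS. A further 17 cells with LPS and Reg3g, 57 with LPS and 12 with PBS met the rule genes but passed the limit on Krt79, Plet1 and Slc39a2, with median UMIs of 11491 with LPS and Reg3g, 9421 with LPS and 12832 with PBS.

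**Figure D1:**
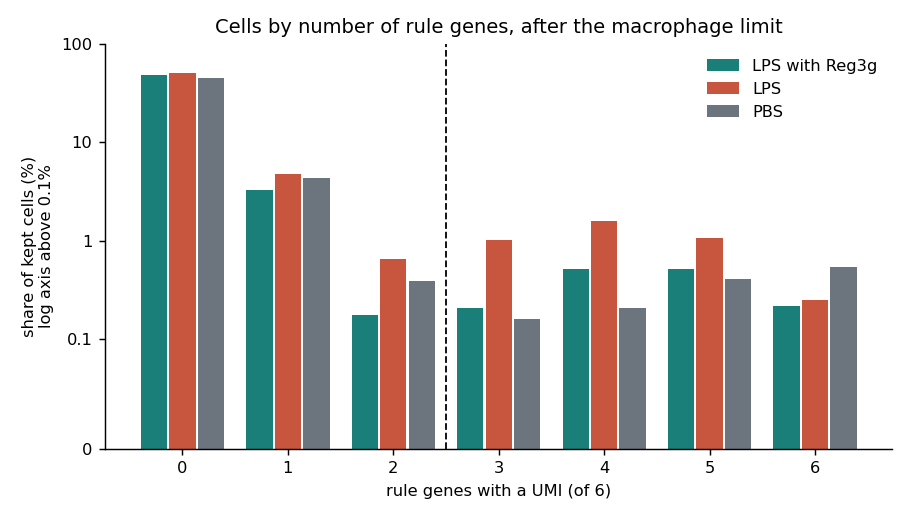
Share of kept cells (%, log axis above 0.1%) by the number of the 6 rule genes with a UMI, after the limit on macrophage genes, for the LPS with Reg3g, LPS and PBS libraries (1 library each). The LPS members crowd at 3 and 4 genes, where 142 and 222 of 546 lie, while 44 of the 107 PBS members hold all 6.

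Migratory Ccr7 dendritic cells made up a larger share of the sorted cells with LPS than with PBS, and with LPS and Reg3g the share was near that with PBS. They were 1.46% of kept cells with LPS and Reg3g (141 of 9669, 95% Clopper-Pearson interval 1.23 to 1.72), 3.93% with LPS (546 of 13880, 3.62 to 4.27) and 1.32% with PBS (107 of 8132, 1.08 to 1.59). The share was 2.99-fold higher with LPS than with PBS (95% interval 2.43 to 3.71) and 2.70-fold lower with LPS and Reg3g than with LPS (2.24 to 3.27). Between LPS with Reg3g and PBS the ratio was 1.11 (0.856 to 1.44), an interval that includes 1. Taken outside the alveolar macrophage gate, the shares were 2.87% with LPS and Reg3g, 6.99% with LPS and 2.57% with PBS. Across 9 other ways of choosing cells the ratio of LPS to PBS lay between 2.52 and 3.02, and that of LPS with Reg3g to LPS between 0.37 and 0.43.

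Conventional dendritic cells, the less mature cells that take up antigen in the lung, had another pattern. The gate for type 1 cells, which present antigen to CD8+ T cells, held 0.476% of kept cells with LPS and Reg3g, 1.51% with LPS and 7.33% with PBS. The gate for type 2 cells, which act mainly on CD4+ T cells, held 0.0621% with LPS and Reg3g, 0.339% with LPS and 4.64% with PBS. Both were lower with LPS than with PBS, by 4.84-fold and 13.7-fold, while the migratory cells were higher. Both were also lower with LPS and Reg3g than with LPS, by 3.18-fold (2.30 to 4.48) and 5.46-fold (2.33 to 15.6), beside the 2.70-fold of the migratory cells. Counted within the 3 dendritic cell gates, migratory cells were 73.1% of 193 cells with LPS and Reg3g, 68.0% of 803 with LPS and 9.91% of 1080 with PBS. This share was 6.86-fold higher with LPS than with PBS (5.57 to 8.52). It differed by 1.07-fold between LPS with Reg3g and LPS (0.886 to 1.30), an interval made for rare counts and wide for shares this large. The Clopper-Pearson intervals also overlapped, at 66.2 to 79.2% with LPS and Reg3g and 64.6 to 71.2% with LPS. The migratory share of dendritic cells could thus not be told apart between these libraries at this number of cells. The parts of type 1 and type 2 cells within the 3 gates were not compared. The gates for conventional cells rest on genes that can themselves change with LPS, and cells that have lost them are counted in no gate.

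**Figure D2:**
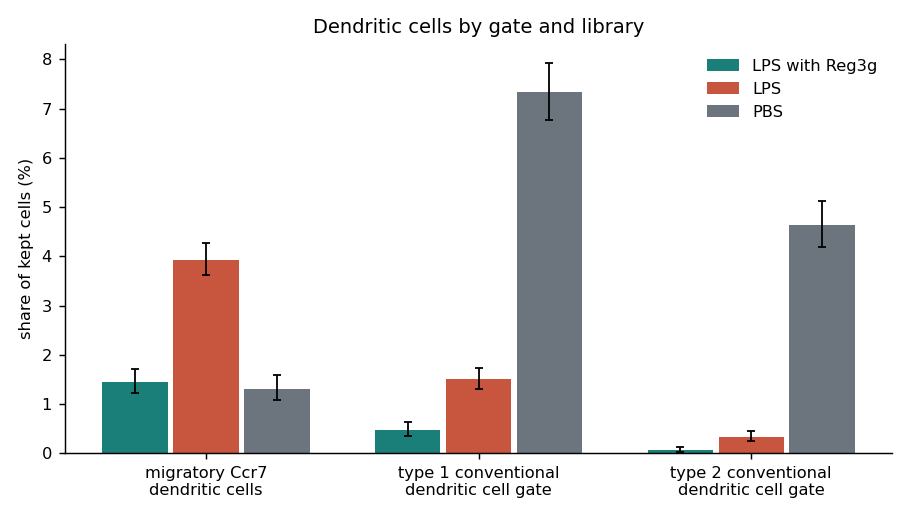
Shares of kept cells (%) in the migratory Ccr7 dendritic cell rule and in the gates for type 1 and type 2 conventional dendritic cells, for the LPS with Reg3g, LPS and PBS libraries (1 library each). Bars are 95% Clopper-Pearson intervals; migratory cells are highest with LPS (3.93%), both conventional gates are highest with PBS (7.33% and 4.64%).

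These are shares of a sort and not numbers in the lung. F4/80, the product of Adgre1, was required by the sort, and Adgre1 stood in the members at 36.3 CPM with LPS and Reg3g, 29.1 CPM with LPS and 26.6 CPM with PBS. Lymphoid cells stood at 102 CPM with LPS and Reg3g, 68.2 CPM with LPS and 73.3 CPM with PBS. After thinning 5.04% of members with LPS and Reg3g, 3.36% with LPS and 3.85% with PBS held an Adgre1 UMI. Lymphoid cells stood at 12.0% with LPS and Reg3g, 7.69% with LPS and 4.11% with PBS. The members' Adgre1 RNA is therefore not taken as their own, and its source was not tested. The monocyte gate held 35.1% of kept cells with LPS and Reg3g, 35.7% with LPS and 22.3% with PBS, and the alveolar macrophage gate 49.2% with LPS and Reg3g, 43.7% with LPS and 48.8% with PBS. A change in the number of migratory cells and a change in the other sorted cells cannot be told apart from shares. Of the members, 9.22% with LPS and Reg3g, 12.3% with LPS and 11.2% with PBS also passed the monocyte gate, and at most 2.56% passed the interstitial macrophage gate. The lymphoid gate was passed by 1.42% of the members with LPS and Reg3g, 3.11% with LPS and none with PBS. The type 2 conventional gate was also passed by 7.09% of the members with LPS and Reg3g, 5.49% with LPS and 26.2% with PBS, and these cells were counted as migratory. None passed the neutrophil gate, which at a limit of 3 cells allows a share of up to 2.13% with LPS and Reg3g, 0.549% with LPS and 2.80% with PBS.

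Markers of other cell types were detected in the members, at sums that lay below or above those of all other cells depending on the type. The 14 alveolar macrophage markers summed to 441 CPM with LPS and Reg3g, 673 CPM with LPS and 325 CPM with PBS, against 9844 CPM with LPS and Reg3g, 9184 CPM with LPS and 12205 CPM with PBS in all other cells of the same libraries, and Siglecf was at 0 in all 3. The 14 monocyte markers summed to 902 CPM with LPS and Reg3g, 1123 CPM with LPS and 971 CPM with PBS, led by Plac8, against 3245 CPM with LPS and Reg3g, 3388 CPM with LPS and 2467 CPM with PBS in all other cells. The 13 interstitial macrophage markers summed to 590 CPM with LPS and Reg3g, 813 CPM with LPS and 838 CPM with PBS, led by Apoe, against 1500 CPM with LPS and Reg3g, 1714 CPM with LPS and 2228 CPM with PBS in all other cells. The 14 neutrophil markers summed to 489 CPM with LPS and Reg3g, 328 CPM with LPS and 95.3 CPM with PBS, and 4 of them were at 0 with LPS and Reg3g, 1 with LPS and 7 with PBS. All other cells stood at 1249 CPM with LPS and Reg3g, 684 CPM with LPS and 239 CPM with PBS for the same markers. The sums for macrophages, monocytes and neutrophils were therefore not equal between libraries, and their part in the results was not tested. The 18 T and NK cell markers summed to between 255 and 311 CPM in the members, led by Il7r, the interleukin 7 receptor, and to between 64.0 and 80.0 CPM in all other cells. Of 12 mast cell, basophil and eosinophil markers 11 were at 0 in each library.

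Set against conventional dendritic cells of the same library, the members had the profile of a matured dendritic cell, which the rule itself selects for. Over all 6768 genes with a mean of at least 10 CPM, 495 genes (7.31%) were at least 2-fold higher in the members in all 3 libraries and 338 (4.99%) at least 2-fold lower. Of a list of 36 genes of dendritic cell maturation, 35 were measured and 31 of them were higher in all 3 libraries, with none lower. A member thinned to 2000 UMIs held a median of 42 UMIs of this list with LPS and Reg3g, 39.5 with LPS and 51 with PBS, against 6 with LPS and Reg3g, 7 with LPS and 6 with PBS in conventional cells. Socs2, a brake on cytokine signalling, stood in the members at 361 CPM with LPS and Reg3g, 359 CPM with LPS and 342 CPM with PBS, against 0 CPM with LPS and Reg3g, 6.01 CPM with LPS and 3.44 CPM with PBS in conventional cells. Tnfrsf9, the receptor 4-1BB, stood at 367 CPM with LPS and Reg3g, 360 CPM with LPS and 116 CPM with PBS in the members against 2.89 CPM with LPS and Reg3g, 4.50 CPM with LPS and 1.10 CPM with PBS in conventional cells. Relb, an NF-kB subunit needed for dendritic cell maturation, and Ccl17, the companion of Ccl22, were picked after their values were seen. Relb stood in the members at 754 CPM with LPS and Reg3g, 694 CPM with LPS and 635 CPM with PBS, and Ccl17 at 3691 CPM with LPS and Reg3g, 2879 CPM with LPS and 2098 CPM with PBS.

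MHC class II genes went the other way. Of 15 measured, 11 were at least 2-fold lower in the members than in conventional dendritic cells in all 3 libraries, and 1 was higher. H2-Ab1, which encodes a chain of the presenting dimer, stood in the members at 1346 CPM with LPS and Reg3g, 953 CPM with LPS and 2128 CPM with PBS, against 7162 CPM with LPS and Reg3g, 7307 CPM with LPS and 8338 CPM with PBS in conventional cells. H2-DMa, part of the peptide editor of the class II pathway, stood at 59.5 CPM with LPS and Reg3g, 69.7 CPM with LPS and 118 CPM with PBS in the members against 762 CPM with LPS and Reg3g, 758 CPM with LPS and 975 CPM with PBS in conventional cells. Of 11 measured genes of type 1 identity, 10 were lower in the members in all 3 libraries, among them Wdfy4, which cross-presentation requires. That direction was set by the choice of cells, since the conventional cells were gated on such genes, Wdfy4 included, and type 1 cells were 46 of 52 of them with LPS and Reg3g, 210 of 257 with LPS and 596 of 973 with PBS. NF-kB genes numbered 9 higher and none lower of 27, and genes of survival and death 7 higher and none lower of 22. Genes of checkpoint and tolerance numbered 9 higher and 1 lower of 21. Of 12 cell cycle genes, 4 were lower and none higher.

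**Figure D3:**
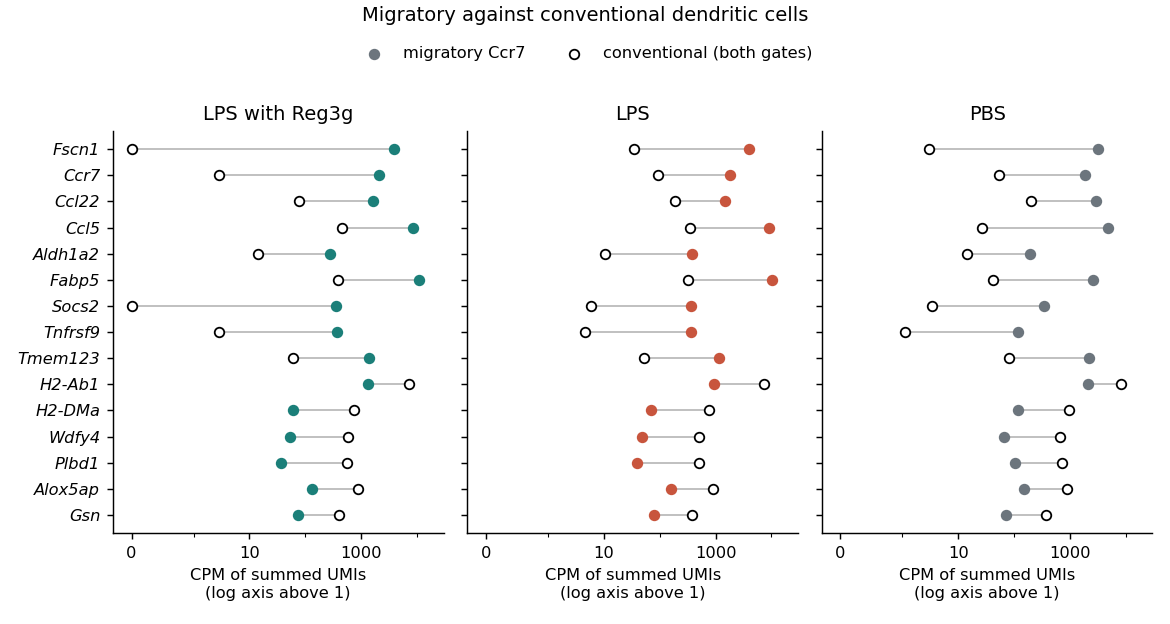
CPM of summed UMIs (log axis above 1) of named genes in migratory Ccr7 dendritic cells and in conventional dendritic cells, 1 panel each for the LPS with Reg3g, LPS and PBS libraries. Ccr7, Fscn1 and Socs2 lie far to the right of the conventional cells in every panel, H2-Ab1 and H2-DMa to the left.

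The first comparison between libraries asks what LPS did to the RNA of migratory cells. In the LPS library 718 of 6768 genes (10.6%) exceeded their PBS level by 2-fold or more, and 430 (6.35%) lay below it by as much. The median log2 ratio over all of them was 0.11. By list median, interferon-stimulated genes and chemokines were higher, genes of cholesterol synthesis and of MHC class II were lower, and NF-kB genes and cytokines lay near the median of all genes. The second comparison asks what Reg3g given with LPS did. There 85 of 6765 genes (1.26%) exceeded their LPS level by 2-fold or more, 204 (3.02%) lay below it by as much, and the median log2 ratio was -0.05. Both comparisons use the LPS library, so their values are set side by side and not related to each other.

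Interferon-stimulated genes, which cells switch on through the receptor for type I interferon, were higher as a group with LPS. Of 36 measured, 18 reached 2-fold above PBS and none 2-fold below, with a median log2 ratio of 0.99 beside 0.11 over all genes. All other cells of the libraries had a median of 1.08 for the same genes, with 20 higher. Isg15, a ubiquitin-like antiviral protein, stood at 489 CPM with LPS and Reg3g, 451 CPM with LPS and 43.5 CPM with PBS. It was 10.4-fold higher with LPS than with PBS (log2 ratio 3.38, 2.86 to 3.94), and its log2 ratio of LPS with Reg3g to LPS was 0.11 (-0.07 to 0.29). After thinning it was held by 42.4% of members with LPS and Reg3g, 44.5% with LPS and 1.92% with PBS, against 20.0% of lymphoid cells with LPS and Reg3g, 28.8% with LPS and 6.85% with PBS. Unthinned, the members' shares were 63.1% with LPS and Reg3g, 63.0% with LPS and 19.6% with PBS. Oasl1, a relative of the antiviral RNA sensors, stood at 85.6 CPM with LPS and Reg3g, 93.3 CPM with LPS and 7.01 CPM with PBS. Irf7, the transcription factor that amplifies interferon production, stood at 65.3 CPM with LPS and Reg3g, 116 CPM with LPS and 12.6 CPM with PBS. Both were higher in each LPS-treated library than with PBS. Irf7 also stood at 154 CPM with LPS and Reg3g, 188 CPM with LPS and 46.2 CPM with PBS in lymphoid cells of the same libraries, so its level in the members lay below that in cells of another type. Not every gene of the list was higher: Rsad2 and Mx1, picked after their values were seen, had log2 ratios of 0.07 and -0.89 for LPS against PBS.

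With LPS and Reg3g against LPS, none of the 36 interferon genes differed by at least 2-fold and their median log2 ratio was -0.19, beside -0.05 over all genes. A thinned member held a median of 4 interferon UMIs with LPS and Reg3g, 5 with LPS and 2 with PBS. Lymphoid cells held 4 with LPS and Reg3g, 5.5 with LPS and 2 with PBS, so these per-cell sums were near those in a cell type of another lineage. Of the Isg15 promoter, the 250 bases before the start are printed because they carry the interferon-stimulated response element, searched on both strands as a pair of GAAA runs with any 2 bases between them. They are chromosome 4, chr4:156200819-156201068 on the minus strand of GRCm38.p6 (RefSeq), and the capitals mark 3 overlapping matches between 56 and 78 bases before the start.
Isg15: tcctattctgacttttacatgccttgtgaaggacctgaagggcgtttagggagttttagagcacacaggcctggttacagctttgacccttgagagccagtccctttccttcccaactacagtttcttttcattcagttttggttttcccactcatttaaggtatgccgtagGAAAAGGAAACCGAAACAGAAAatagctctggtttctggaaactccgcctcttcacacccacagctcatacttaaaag
The motif was found in 978 of 32851 mouse promoters of this length (2.98%), in 19 of the 33 interferon genes of the list with an entry (57.6%) and in 1 of 5 rule genes with an entry, Apol7c. A match is a run of letters and not a shown binding site. Apol7c was lower with LPS and Isg15 higher.

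Some mediators of inflammation were higher with LPS and others lower. Of 15 chemokines 6 reached 2-fold above PBS and 1 reached 2-fold below, with a median log2 ratio of 0.77. Of 10 cytokines 3 were higher and 2 lower, with a median of 0.19, beside 0.11 over all genes, of which 10.6% were higher and 6.35% lower. Il1b, the inflammasome-processed cytokine, stood at 1082 CPM with LPS and Reg3g, 1196 CPM with LPS and 231 CPM with PBS. Il1rn, which blocks the interleukin 1 receptor, stood at 144 CPM with LPS and Reg3g, 143 CPM with LPS and 8.41 CPM with PBS. The blocker was 17.0-fold higher with LPS than with PBS (log2 ratio 4.09, 2.95 to 5.54), and Il1b was 5.17-fold higher (log2 ratio 2.37, 2.14 to 2.61). Cxcl1 and Cxcl3, which attract neutrophils, were at 0 with PBS. Cxcl1 stood at 69.6 CPM with LPS and Reg3g and 81.7 CPM with LPS. Against a floor of 3 counts in the PBS library, the LPS level is at least 19.4-fold higher. Cxcl3 stood at 56.6 CPM with LPS and Reg3g and 59.0 CPM with LPS, and by the same floor lay at least 14.0-fold higher in the LPS library. Saa3, an acute phase protein, stood at 857 CPM with LPS and Reg3g, 1518 CPM with LPS and 0 with PBS.

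For some of these genes other cells held as much or more, and this bears on how the levels are read. Saa3 stood in lymphoid cells at 1374 CPM with LPS and Reg3g, 2830 CPM with LPS and 2.72 CPM with PBS. After thinning, a Saa3 UMI was held by 32.4% of members with LPS and Reg3g, 42.7% with LPS and none with PBS. Lymphoid cells stood at 50.0% with LPS and Reg3g, 51.9% with LPS and none with PBS. The share in members lay at or below that of lymphoid cells. The Saa3 RNA is therefore not taken as the members' own, and its source was not tested. Unthinned, the members' shares were 51.1% with LPS and Reg3g, 57.7% with LPS and 0% with PBS. Cxcl2 was held by 36.0% of members with LPS and Reg3g, 45.1% with LPS and 5.77% with PBS against 54.0% of lymphoid cells with LPS and Reg3g, 61.5% with LPS and 9.59% with PBS. Unthinned it was held by 54.6% of members with LPS and Reg3g, 59.9% with LPS and 16.8% with PBS. Il1b was held by 54.0% of members with LPS and by 53.8% of lymphoid cells with LPS, and unthinned by 63.9% of members. Cxcl3 was held by 4.32% of members with LPS and Reg3g, 8.89% with LPS and none with PBS. Lymphoid cells stood at 18.0% with LPS and Reg3g, 13.5% with LPS and none with PBS. The Cxcl3 RNA is likewise not taken as the members' own, and its source was not tested. Thinning left out 40 of 90 lymphoid cells with LPS and Reg3g, 59 of 111 with LPS and 60 of 133 with PBS, whose median depths before thinning were 2205.5 UMIs with LPS and Reg3g, 1829 UMIs with LPS and 2144 UMIs with PBS. Of the 10 genes with the highest ratios of LPS to PBS, Mt2 and Mylk were held by a larger share of members than of lymphoid cells beyond counting error. Mt2, a metal-binding protein, was held by 44.6% of members with LPS and Reg3g, 49.4% with LPS and 7.69% with PBS, against 0% of lymphoid cells with LPS and Reg3g, 5.77% with LPS and 1.37% with PBS. Unthinned, 58.2% of members with LPS and Reg3g, 59.9% with LPS and 18.7% with PBS held it. Mylk, myosin light chain kinase, stood at 55.1 CPM with LPS and Reg3g, 100 CPM with LPS and 12.6 CPM with PBS and at 0 in all lymphoid cells.

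Fabp5, a fatty acid carrier, and Ccl5, which attracts T cells, were among the genes that set members apart from conventional cells. Fabp5 stood in the members at 11101 CPM with LPS and Reg3g, 10377 CPM with LPS and 2568 CPM with PBS. It was 4.04-fold higher with LPS than with PBS (log2 ratio 2.01, 1.95 to 2.08), and the log2 ratio of LPS with Reg3g to LPS was 0.10 (0.06 to 0.13). A thinned member held a median of 19 Fabp5 UMIs with LPS and Reg3g, 17 with LPS and 4 with PBS, so the difference ran through the middle of the population. Conventional dendritic cells stood at 387 CPM with LPS and Reg3g, 320 CPM with LPS and 41.4 CPM with PBS. Ccl5 stood in the members at 8383 CPM with LPS and Reg3g, 9260 CPM with LPS and 4844 CPM with PBS, a log2 ratio of 0.93 (0.88 to 0.99) for LPS against PBS. The 2 genes are compared here with themselves across libraries and not with each other, since 3' UMI counts are not given per length.

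Ccl22 and Il12b were lower with LPS, while Ccl17 and Ccl5 were higher by the values above. Ccl22, at 1648 CPM with LPS and Reg3g, 1459 CPM with LPS and 2953 CPM with PBS, had a log2 ratio of -1.02 (-1.10 to -0.94) for LPS against PBS, which lay between -1.09 and -0.92 over the alternatives and so on either side of 2-fold. Il12b, the shared subunit of interleukins 12 and 23, stood at 470 CPM with LPS and Reg3g, 367 CPM with LPS and 882 CPM with PBS. Its log2 ratio of LPS to PBS was -1.26 (-1.41 to -1.11), and that of LPS with Reg3g to LPS was 0.36 (0.17 to 0.54). Fewer cells held it with LPS: 18.0% of thinned members with LPS and Reg3g, 15.8% with LPS and 40.4% with PBS, and no lymphoid cell in any library. Unthinned, these shares were 22.7% with LPS and Reg3g, 19.4% with LPS and 52.3% with PBS. The 10% of members with the most Il12b held 88.9% of its UMIs with LPS and Reg3g, 92.7% with LPS and 58.4% with PBS. For Ccr7 the highest 10% held 22.2% with LPS and Reg3g, 24.6% with LPS and 30.4% with PBS. Ccr7 was used to choose the cells, so its spread was set in part by the rule. Aldh1a2 was not, and its highest 10% held 65.0% with LPS and Reg3g, 57.0% with LPS and 66.7% with PBS. Its thinned UMIs numbered 80, 435 and 39 in this order, against 144, 427 and 185 for Il12b. Il12b was thus more concentrated than Aldh1a2 with LPS, where the counts were close. With PBS the share of Il12b lay below that of Aldh1a2.

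Ligands that signal to T cells lay on both sides of their PBS level with LPS. Cd86, the main ligand of CD28, stood at 348 CPM with LPS and Reg3g, 349 CPM with LPS and 146 CPM with PBS, a log2 ratio of 1.26 (0.96 to 1.57) for LPS against PBS. It was held by 51.1% of thinned members with LPS and Reg3g, 44.1% with LPS and 20.2% with PBS, against 2.00% of lymphoid cells with LPS and Reg3g, 3.85% with LPS and 15.1% with PBS. Unthinned, 70.9% of members with LPS and Reg3g, 57.7% with LPS and 39.3% with PBS held it. Icosl, the ligand of ICOS, stood at 103 CPM with LPS and Reg3g, 76.6 CPM with LPS and 224 CPM with PBS (log2 ratio -1.55, -1.87 to -1.23). Tnfsf4, the OX40 ligand, had 0 counts with LPS and Reg3g, 2 with LPS and 25 with PBS, a log2 ratio of -5.36 (-8.48 to -3.35) for LPS against PBS. Among 12 co-stimulatory ligands, 2 lay 2-fold or more above PBS and 2 below, beside 10.6% above and 6.35% below over all genes. Whether the list differed from all genes was not tested. With LPS and Reg3g against LPS none of the 11 with counts above the floor differed by 2-fold.

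Genes of checkpoint and tolerance numbered 6 higher and 2 lower of 21 with LPS, beside 10.6% higher and 6.35% lower over all genes. Pdcd1lg2, a ligand of PD-1, stood at 95.7 CPM with LPS and Reg3g, 83.0 CPM with LPS and 23.8 CPM with PBS, and was 3.48-fold higher with LPS than with PBS. Tnfrsf9 was 3.09-fold higher. Itgb8, the integrin chain that activates TGF-beta, stood at 13.1 CPM with LPS and Reg3g, 10.7 CPM with LPS and 101 CPM with PBS. It was 9.43-fold lower with LPS than with PBS (log2 ratio -3.24, -3.96 to -2.56). Axl, a receptor for dying cells, stood at 16.0 CPM with LPS and Reg3g, 13.3 CPM with LPS and 49.1 CPM with PBS, a log2 ratio of -1.89. The list thus held genes with restraining roles on both sides, as a list of this size can at the shares over all genes. Aldh1a2 had a log2 ratio of 1.01 (0.75 to 1.28) for LPS against PBS, which lay between 0.90 and 1.14 over the alternatives, and -0.50 (-0.74 to -0.27) for LPS with Reg3g against LPS.

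Genes of cholesterol synthesis and oxysterols were lower as a group with LPS. Cells make cholesterol through the mevalonate pathway, whose genes are switched on by Srebf2 when membrane cholesterol is low. Of 18 measured, 12 lay 2-fold or more below PBS and 1 above, with a median log2 ratio of -1.37, which lay between -1.44 and -1.17 over the alternatives. The same 18 genes had a median of -0.17 in all other cells and -0.54 in conventional dendritic cells, with 5 lower and 2 higher in all other cells. Whether members differed from other cells in this was not tested. Hmgcs1, an early enzyme of the pathway, stood at 63.8 CPM with LPS and Reg3g, 37.2 CPM with LPS and 224 CPM with PBS. It was 6.02-fold lower with LPS than with PBS (log2 ratio -2.59, -2.98 to -2.21), and the log2 ratio of LPS with Reg3g to LPS was 0.78 (0.22 to 1.32). Sqle, which oxidises squalene, stood at 17.4 CPM with LPS and Reg3g, 12.8 CPM with LPS and 58.9 CPM with PBS.

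Nr1h3, the oxysterol receptor LXR alpha, was the 1 gene of the cholesterol and oxysterol list that reached 2-fold above PBS, at 16.0 CPM with LPS and Reg3g, 42.8 CPM with LPS and 2.80 CPM with PBS, and its log2 ratio of 3.93 for LPS against PBS became 0.97 after thinning. Per cell, 26.6% of thinned members with LPS and Reg3g, 19.4% with LPS and 53.8% with PBS held UMIs of at least 3 genes of the list, against 14.0% of lymphoid cells with LPS and Reg3g, 30.8% with LPS and 27.4% with PBS. With LPS and Reg3g against LPS, 1 of the 18 genes was at least 2-fold lower, none higher, and the median log2 ratio was 0.13. The Hmgcs1 promoter is shown because it was the single one of 16 genes of the list with an entry to hold the sterol response element TCACNCCAC, searched on both strands, which 346 of all 32851 promoters hold (1.05%). Its 250 bases before the start are chromosome 13, chr13:119690101-119690350 on the plus strand of GRCm38.p6 (RefSeq), and the capitals mark the match, between 128 and 137 bases before the start.
Hmgcs1: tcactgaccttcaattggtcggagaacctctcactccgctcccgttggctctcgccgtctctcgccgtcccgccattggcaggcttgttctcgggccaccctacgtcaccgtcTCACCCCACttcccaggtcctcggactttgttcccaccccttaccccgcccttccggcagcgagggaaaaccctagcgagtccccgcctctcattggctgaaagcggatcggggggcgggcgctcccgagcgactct

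Antigen presentation differed by class. Of 15 MHC class II genes, 6 lay 2-fold or more below PBS and none above, with a median log2 ratio of -0.84 in members. The median was -1.93 in all other cells and -0.19 in conventional dendritic cells. All other cells mix types whose shares differed between libraries, and the part of this in their medians was not tested. H2-Eb2, a class II beta chain gene, stood at 56.6 CPM with LPS and Reg3g, 32.5 CPM with LPS and 210 CPM with PBS (log2 ratio -2.69, -3.11 to -2.29). Ciita, the master regulator of class II transcription, stood at 17.4 CPM with LPS and Reg3g, 8.99 CPM with LPS and 35 CPM with PBS. H2-Ab1 had a log2 ratio of -1.16 (-1.25 to -1.06), and of -0.97 when members that also passed another gate were left out. A thinned member held a median of 15 class II UMIs with LPS and Reg3g, 13 with LPS and 28.5 with PBS. With LPS and Reg3g against LPS the median log2 ratio of class II genes was 0.29 in members. It was -0.82 in all other cells and -0.02 in conventional dendritic cells. In members 1 of 15 genes reached 2-fold above LPS and none 2-fold below. Of 23 MHC class I genes, 1 was higher with LPS than with PBS and none lower, with a median of 0.21. It was Psmb10, a subunit of the immunoproteasome, at 234 CPM with LPS and Reg3g, 231 CPM with LPS and 91.1 CPM with PBS, and its log2 ratio of 1.34 became 0.65 after thinning.

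**Figure D4:**
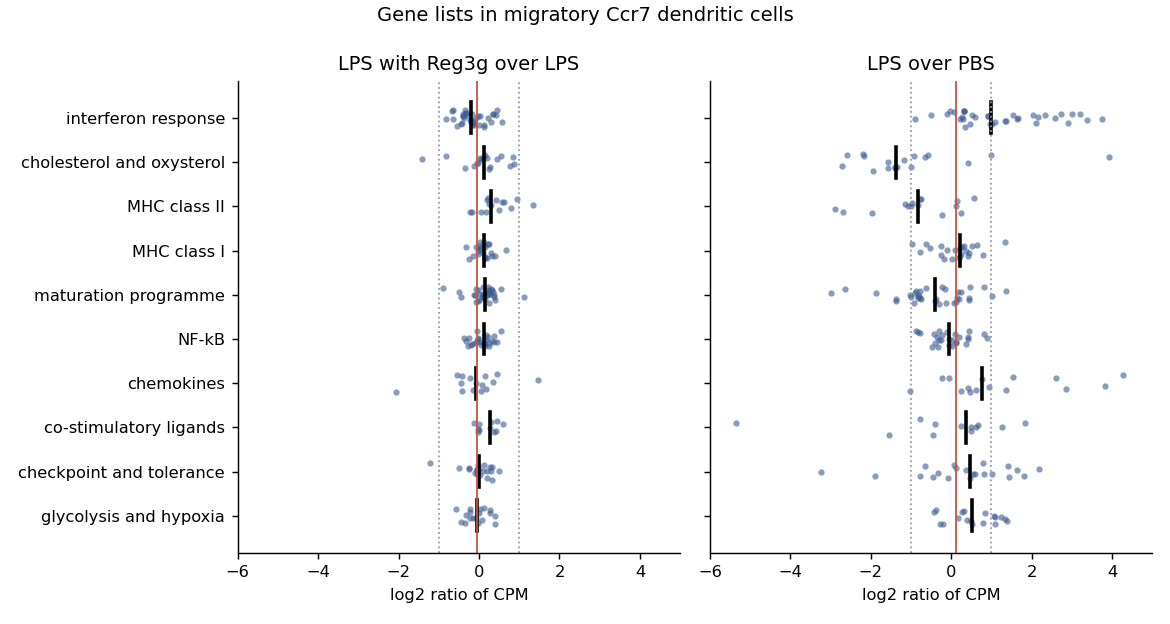
Log2 ratios of CPM of the measured genes of each list (points) in migratory Ccr7 dendritic cells, LPS with Reg3g against LPS on the left and LPS against PBS on the right, with list medians as black bars, 2-fold as dotted lines and the median of all genes as a red line at -0.05 and 0.11. Interferon genes lie right of the line for LPS against PBS (median 0.99) and cholesterol genes left of it (median -1.37), while the list medians for LPS with Reg3g against LPS stay nearer the line.

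Parts of the maturation programme itself differed between libraries. Of its 35 measured genes, 2 lay 2-fold or more above PBS and 6 below, with a median log2 ratio of -0.41. H2-M2, a nonclassical MHC gene of mature dendritic cells, stood at 20.3 CPM with LPS and Reg3g, 37.7 CPM with LPS and 235 CPM with PBS. Nr4a3, a nuclear receptor that dendritic cell migration requires in mice, stood at 215 CPM with LPS and Reg3g, 182 CPM with LPS and 670 CPM with PBS. Slco5a1, a transporter family member, stood at 26.1 CPM with LPS and Reg3g, 12.0 CPM with LPS and 95.3 CPM with PBS, and at 0 in conventional and lymphoid cells of all 3 libraries. Genes that mark handling and RNA quality lay lower in the same comparison. The 19 measured dissociation and immediate early genes had a median log2 ratio of -0.58, with 3 genes 2-fold or more below PBS (Atf3 at -1.79, Fosb at -1.64 and Hspa1b at -1.21) and 1 above, and the 9 mitochondrially encoded genes had a median of -0.77, with 3 below and none above. All other cells had medians of -0.77 and -0.92 for the same lists, so these shifts were not limited to the members. The part of handling and RNA quality in the lower maturation genes was not tested. H2-M2, Nr4a3 and Slco5a1 were lower with LPS than with PBS. Ccr7 and Fscn1 had log2 ratios of -0.07 (-0.16 to 0.02) and 0.31 (0.24 to 0.38). Ccr7 and Fscn1 were used to choose the cells, so their levels were set in part by the rule and are not weighed against the others. Of 27 NF-kB genes, none differed by 2-fold in either comparison, with medians of -0.06 for LPS against PBS and 0.12 for LPS with Reg3g against LPS. Of 30 genes of migration and the cytoskeleton none was higher with LPS and 4 were lower, among them Cd44, the hyaluronan receptor, at 197 CPM with LPS and Reg3g, 182 CPM with LPS and 600 CPM with PBS.

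The lowest ratios of LPS to PBS among genes of at least 50 CPM on average were led by Zc3h12c, an RNA-degrading relative of Regnase-1. It stood at 17.4 CPM with LPS and Reg3g, 19.3 CPM with LPS and 188 CPM with PBS, 9.75-fold lower with LPS than with PBS (log2 ratio -3.29, -3.81 to -2.79). Thinned, 3.60% of members with LPS and Reg3g, 3.16% with LPS and 29.8% with PBS held it, against none of lymphoid cells with LPS and Reg3g, 1.92% with LPS and 2.74% with PBS. Unthinned, 7.09% of members with LPS and Reg3g, 6.96% with LPS and 53.3% with PBS held it. Serpinb1a, an inhibitor of neutrophil proteases, stood at 115 CPM with LPS and Reg3g, 60.3 CPM with LPS and 385 CPM with PBS. H2-Eb2, H2-M2, Hmgcs1 and Apol7c belong to the same 10, with Arap2, Rnase6, Nabp1 and Fxyd2 at log2 ratios between -2.54 and -2.22. Of these 10 genes, 6 were held by a larger share of PBS members than of PBS lymphoid cells beyond counting error.

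Transcription factors of dendritic cell identity and glycolysis showed smaller differences. Irf8, which type 1 conventional cells depend on, stood at 305 CPM with LPS and Reg3g, 325 CPM with LPS and 718 CPM with PBS (log2 ratio -1.14, -1.31 to -0.98), and this ratio became -0.83 without members that passed another gate. Batf, a partner of interferon regulatory factors, stood at 53.7 CPM with LPS and Reg3g, 41.9 CPM with LPS and 7.01 CPM with PBS. Of 31 such factors 1 was higher and 4 were lower with LPS. Of 18 genes of glycolysis and hypoxia 6 lay 2-fold or more above PBS and none below, with a median log2 ratio of 0.50. Pkm, pyruvate kinase, stood at 236 CPM with LPS and Reg3g, 321 CPM with LPS and 128 CPM with PBS, a log2 ratio of 1.33 (1.02 to 1.66). Eno1, enolase, had a ratio of 1.38 that became 0.85 after thinning. Other cells held as much or more of these genes with LPS: after thinning 40.9% of LPS members held Pkm, against 69.2% of LPS lymphoid cells, and 14.4% held Eno1, against 44.2%. Over the list, a thinned member held a median of 5 UMIs with LPS and Reg3g, 5 with LPS and 4 with PBS, and a lymphoid cell 7 with LPS and Reg3g, 7 with LPS and 3 with PBS. The shares in lymphoid cells do not show where the members' RNA came from. Whether these levels are the members' own was not tested.

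**Figure D5:**
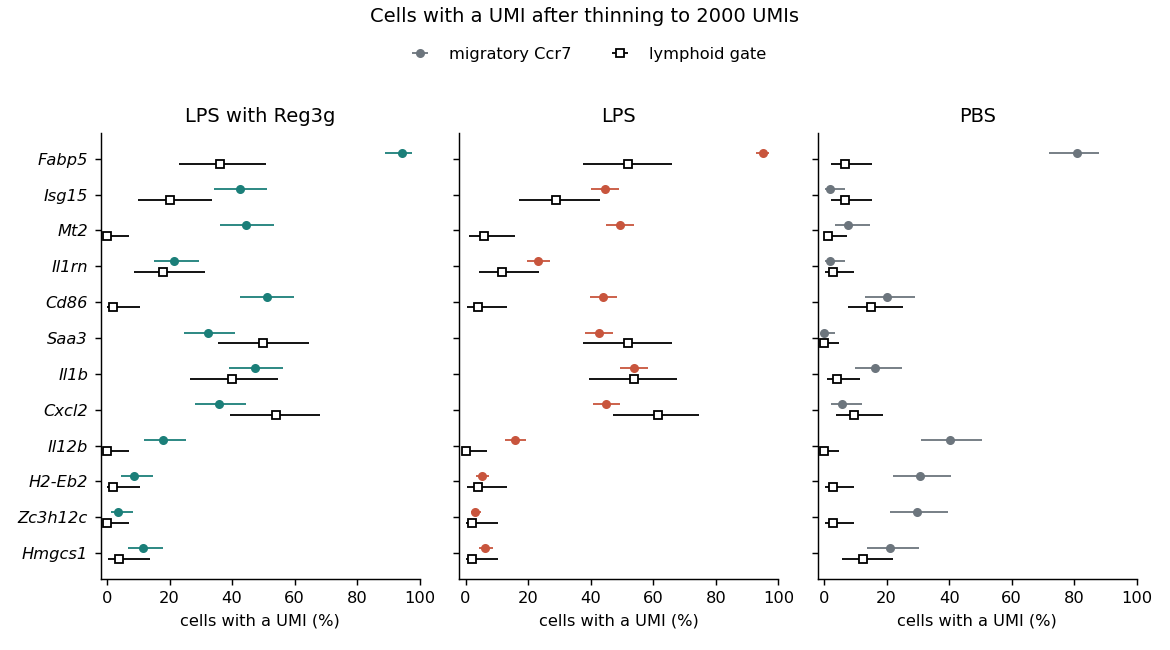
Share of cells (%) with a UMI of each gene after thinning to 2000 UMIs, in migratory Ccr7 dendritic cells and in lymphoid cells, 1 panel each for the LPS with Reg3g, LPS and PBS libraries; bars are 95% Clopper-Pearson intervals. Il12b is held by 18.0% of members with LPS and Reg3g, 15.8% with LPS and 40.4% with PBS and by no lymphoid cell, while for Saa3 the lymphoid shares with LPS (51.9%) and with LPS and Reg3g (50.0%) lie above those of members.

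By the 2-fold rule, few genes of at least 50 CPM on average differed between LPS with Reg3g and LPS in the cells that were present. Among these genes, 1 lay 2-fold or more above LPS and 6 below. The counts were larger at lower floors and after thinning, as given in the closing section. By the same rule for naming genes as above, the highest ratio was that of Tmem39a, a membrane protein of the endoplasmic reticulum. Tmem39a stood at 231 CPM with LPS and Reg3g, 119 CPM with LPS and 164 CPM with PBS (log2 ratio of LPS with Reg3g to LPS 0.96, 0.67 to 1.25). It was held by 34.5% of thinned members with LPS and Reg3g, 20.9% with LPS and 23.1% with PBS (unthinned 58.9% with LPS and Reg3g, 35.3% with LPS and 48.6% with PBS), and it was the single gene of the 10 highest whose share lay above that of lymphoid cells beyond counting error. Serpinb1a (0.93, 0.51 to 1.33) and H2-Eb2 (0.80, 0.20 to 1.37) were among the same 10. Both lay between the LPS and the PBS level with LPS and Reg3g. They are also among the 10 lowest ratios of LPS to PBS. Both ranks use the LPS level, so a low LPS value would by itself place a gene there. No return toward the PBS level is read from this. Htr7, a serotonin receptor, stood at 94.3 CPM with LPS and Reg3g, 54.8 CPM with LPS and 25.2 CPM with PBS, and thus farther from the PBS level than with LPS alone.

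The lowest ratios of LPS with Reg3g to LPS included genes of other cells, of the cell cycle and of the response to tissue dissociation. Stmn1, a microtubule regulator of dividing cells, stood at 27.6 CPM with LPS and Reg3g, 109 CPM with LPS and 18.2 CPM with PBS. Its log2 ratio was -1.98 (-2.74 to -1.31), and 5 of 12 genes of the cell cycle lay 2-fold or more below LPS, with a list median of -0.54. In the LPS library 6 of the 12 lay 2-fold or more above PBS, with a median of 0.90, and for Stmn1 the log2 ratio of 2.58 became 0.84 after thinning. The thinned share of cells with at least 3 cell cycle genes was 7.91% with LPS and Reg3g, 14.6% with LPS and 6.73% with PBS. Lyz2, the lysozyme of macrophages and monocytes, stood at 856 CPM with LPS and Reg3g, 1647 CPM with LPS and 1472 CPM with PBS, and Tgfbi, Cd68 and Ly6c2 were among the same 10. Ly6c2, a monocyte surface gene, stood at 56.6 CPM with LPS and Reg3g, 127 CPM with LPS and 86.9 CPM with PBS, and its log2 ratio of -1.16 became 0.094 when marked doublets were left out. Tgfbi, at 58.0 CPM with LPS and Reg3g, 133 CPM with LPS and 51.9 CPM with PBS, had a ratio of -1.20 that became -0.71 in the same way. Egr1, an immediate early gene, stood at 66.7 CPM with LPS and Reg3g, 150 CPM with LPS and 224 CPM with PBS, and Dnajb1, a heat shock co-chaperone, at 37.7 CPM with LPS and Reg3g, 72.3 CPM with LPS and 109 CPM with PBS. The list of 19 measured dissociation genes had a median log2 ratio of -0.29, with 1 gene 2-fold or more below LPS and none above, and 9 mitochondrially encoded genes had a median of 0.44, with 1 above and none below. All other cells had medians of -0.10 and 0.43 for the same lists. The part of handling in the members' ratios was not tested. None of the 10 lowest was held by a larger share of LPS members than of LPS lymphoid cells beyond counting error. Marco, an alveolar macrophage scavenger receptor, stood at 13.1 CPM with LPS and Reg3g, 118 CPM with LPS and 11.2 CPM with PBS. After thinning its 55 UMIs in LPS members lay in 25 of 506 cells, 24 of them in 1 cell.

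The RNA of Reg3g itself was nearly absent from the members, with 3 counts with LPS and Reg3g, 1 with LPS and 0 with PBS, at or under the floor of 3 counts, so no ratio is given. Reg3g was given as a protein, and its RNA does not check the labels. Extl3, described as a receptor for Reg3 proteins, stood at 7.25 CPM with LPS and Reg3g, 6.42 CPM with LPS and 15.4 CPM with PBS, a log2 ratio of 0.18 (-1.64 to 1.71) for LPS with Reg3g against LPS, an interval too wide to show a difference of 2-fold.

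Some members also held RNA of the genes that gate conventional dendritic cells, here called traces, which do not show where a cell came from. A member was given a type 1 or type 2 trace when it held at least 2 of the 8 gate genes of that type and more than of the other. Type 2 traces were found in 38.3% of members with LPS and Reg3g (54 of 141), 28.2% with LPS (154 of 546) and 57.9% with PBS (62 of 107). Type 1 traces were found in 7.09% with LPS and Reg3g, 4.40% with LPS and 7.48% with PBS. After thinning, type 2 traces were found in 14.4% with LPS and Reg3g, 14.0% with LPS and 21.2% with PBS, and type 1 traces in 3.60% with LPS and Reg3g, 1.58% with LPS and 2.88% with PBS. Type 2 traces were thus the more frequent in every library, and the order of the libraries narrowed once depth was equal. The type 2 gate includes Flt3, Zbtb46 and Cbfa2t3, which are not limited to type 2 cells. Without any UMI of either set were 11.3% of members with LPS and Reg3g, 13.6% with LPS and 1.87% with PBS, and after thinning 29.5% with LPS and Reg3g, 32.8% with LPS and 19.2% with PBS.

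Members with type 1 traces differed in their mediators from those with type 2 traces, as a description of few cells. With LPS and Reg3g, Il12b stood at 1932 CPM in 10 members with type 1 traces and at 102 CPM in 54 with type 2 traces. With LPS it stood at 409 CPM in 24 members and at 393 CPM in 154 members. With PBS it stood at 1662 CPM in 8 members and at 804 CPM in 62 members. Il12b was thus higher in type 1 traces than in type 2 traces with LPS and Reg3g and with PBS, and close between them with LPS. Most Il12b UMIs lay in a small part of the members, so levels in 10 and 8 members can rest on few cells. The number of cells holding it in each trace was not counted. Ccl22 stood at 3796 CPM in type 1 and 1356 CPM in type 2 traces with LPS and Reg3g, 784 and 1557 CPM with LPS, and 4560 and 2090 CPM with PBS. Aldh1a2 stood at 160 CPM in type 1 and 320 CPM in type 2 traces with LPS and at 25.8 and 138 CPM with PBS, while with LPS and Reg3g both were near each other at 159 and 177 CPM.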

How the data were processed

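Three-prime single-cell RNA libraries of sorted lung cells, 1 each for LPS with Reg3g, LPS and PBS, were analysed from UMI counts per gene and barcode that the authors deposited. The counts came from Cell Ranger 9.0.1, per the file headers. The submitters' notes on processing also name bcl2fastq 5.0.1, Seurat 4.4.0 and mm10. Which annotation was used was not given in the sources used here.

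Kept barcodes had 500 genes or more, 1000 UMIs or more and no more than 15% mitochondrial UMIs. The kept cells numbered 9669, 13880 and 8132 in the LPS with Reg3g, LPS and PBS libraries, with median depths of 5619, 4381 and 6052 UMIs. Doublets, the highest Scrublet scores at 0.4% per 1000 barcodes (scanpy 1.11.5), were left out only as an alternative. Conventional, lymphoid and other cells were gated by UMIs of 8 to 13 genes, mostly with at least 3 detected. UMI counts were summed over the members of a library and scaled to CPM. Ratios carry exact conditional binomial intervals, levels exact Poisson and shares exact Clopper-Pearson intervals at 95%. A count of 0 was set to a floor of 3 counts, which makes a ratio a bound. No ratio was formed where both counts were at or under that floor or where the floor turned the direction. Genes with a mean of at least 10 CPM over the 3 libraries were compared. Cells were thinned to 2000 UMIs for shares of cells. A larger share than in lymphoid cells beyond counting error means that the intervals did not overlap.

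Named genes are the 10 highest and 10 lowest ratios per comparison among genes with a mean of at least 50 CPM. For members against conventional cells they are the 15 highest and 10 lowest. Left out of the ranks were genes under 10% of their level in another gate, and ribosomal, mitochondrial, haemoglobin, immunoglobulin and predicted genes. Up to 4 genes of each of 39 lists were added, with the rule genes, the label's markers, Reg3g and Extl3. The members, gates and lists were chosen with earlier results of these data known. Promoters are from RefSeq, GRCm38.p6, matched by symbol. The calculation was tested on simulated data, which were Poisson counts drawn from the members' mean levels without spread among cells, mice or libraries. This checks the calculation and cannot show whether the intervals are wide enough for these data. Python 3.11.15, numpy 2.4.6, scipy 1.17.1, pandas 2.3.3 and matplotlib 3.10.9 were used. Some genes of the lists are counted but not reported here by name.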

Additional observations from a re-analysis of the deposited data

How the results depend on the processing

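The direction of both share ratios was kept under all 9 alternatives for choosing cells. The LPS share of kept cells was 2.91% with at least 4 rule genes, 3.34% without Il4i1, 3.23% with no macrophage gene UMI and 3.33% without members passing other gates. Migratory cells then made up 60.8%, 64.0%, 62.8% and 63.6% of dendritic gate cells with LPS. Thinning to 2000 UMIs gave 80.5% with LPS and Reg3g, 77.5% with LPS and 14.2% with PBS. Genes higher with LPS than PBS (718) numbered 190 at a floor of 50 CPM and 1089 at 5 CPM. Genes lower (430) numbered 114 and 690 at these floors and 783 after thinning. Genes higher with LPS and Reg3g than LPS (85) numbered 1 and 229 at these floors, 357 after thinning and 129 with no macrophage gene UMI. Genes lower (204) numbered 6, 443 and, thinned, 505.

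Some genes with a ratio of at least 2-fold turned direction. For LPS against PBS, Clec4n became -0.54 after thinning and Cx3cr1 2.15 without members passing other gates. For LPS with Reg3g against LPS, H2-Ob became -0.14 after thinning, Ly6c2 0.094 without marked doublets and Nr1h3 0.093 without members passing other gates. Smaller ratios changed sign too, among them H2-M2 for LPS with Reg3g against LPS, at -0.89 with a range of -1.93 to 1.08. Thinning was the alternative under which the most gene ratios counted as moved from the main result. For LPS against PBS 67 moved and 127 stayed the same, and for LPS with Reg3g against LPS 37 moved and 154 stayed. The causes were not tested.

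No paired analysis was possible because each group is 1 library. The number of members, 107 to 546, limits ratios of genes with few counts, and counting intervals say nothing of the spread between mice.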
